A study of Mus musculus with 15 samples.

Results

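Growth hormone signalling in the liver was followed through the RNA of 10 genes: the receptors Ghr and Prlr, the kinases Jak1 and Jak2, the transcription factors Stat3, Stat5a and Stat5b, the repressor Bcl6, and the phosphatases Ptpn1 and Ptpn6. The genes were taken by their symbols from a table of exon counts, and all 10 were found among its 38087 gene rows. All 10 also passed the filter on low counts that left 17405 genes to be tested. The cells were cryopreserved primary hepatocytes of CD-1 mice, an outbred stock, cultured with 25% mouse serum for 24 h. The serum came from conventionally raised (ConvR) mice or from germ-free (GF) mice, which have no microbiota.

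There were 5 groups in 13 libraries. They were male cells in ConvR male serum (3 libraries), female cells in ConvR male serum (3), female cells in GF female serum with mouse growth hormone at 8 ng per ml for the last 2 h (3), female cells in GF female serum with vehicle (2, replicates 2 and 3), and female cells in ConvR female serum with vehicle (2, replicates 2 and 3). Both groups of cells in male serum had vehicle too. All cells had been plated in medium with dexamethasone and insulin, which were also present during the serum exposure. Each sex came as its own stock of donor cells, so donor sex and donor cannot be told apart. The labels do not state whether replicates were separate cultures or serum pools, and the p-values therefore measure the spread between libraries, which may be technical.

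Growth hormone binds its receptor GHR at the hepatocyte surface, which activates the tyrosine kinase JAK2 bound to the receptor's tail. JAK2 phosphorylates STAT5, mostly STAT5B in liver, which enters the nucleus and switches on genes such as Igf1, Socs2 and Cish. The CIS and SOCS proteins and the phosphatases PTP1B (gene Ptpn1) and SHP-1 (Ptpn6) dampen the signal, and BCL6 is a repressor that binds many of the DNA sites STAT5 uses in mouse liver.

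The 10 genes differed in the tests they passed. Bcl6 passed the test in all 4 comparisons: it fell with growth hormone, rose in GF and in male serum relative to ConvR female serum, and fell in male relative to female cells. Under the alternative analyses listed with the processing, the call with growth hormone was made in 11 of 12. The calls in GF serum, male serum and male cells were made in 7 of 11, 6 of 12 and 13 of 13. Ghr, Prlr, Stat5a, Stat5b and Ptpn1 were lower in male than in female cells in the same serum, with Prlr at 0.294 of the female level. Jak1, Jak2, Stat3 and Ptpn6 passed no test. These comparisons share libraries (the ConvR female serum group serves 2 of them, the GF serum group 2 and the female cells in male serum 2), so their values are set side by side and are not independent of each other.

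Library totals ran from 34097400 to 48742274 counts. The hepatocyte label was checked against 8 marker genes, all detected in every library. Alb, the albumin gene, stood between 5824 and 18070 CPM (counts scaled to library size), and Apob, which encodes the main protein of very low density lipoproteins, between 3960 and 6980 CPM. The summed level of the hepatocyte markers was 25960 to 26530 CPM in male cells, against 12940 to 13730 CPM in female cells in the same serum, and Alb made up most of it. Of the 8 hepatocyte markers 6 rose in male cells (Alb, Ttr, Apoa1, Serpina1c, Cps1 and Asgr1), while Hnf4a, the gene of a defining hepatocyte transcription factor, fell by 0.33 (adjusted p = 0.00214) and Apob changed by -0.07 (0.634). Markers of other liver cells were low beside these, and their values are given where they move with a result. In bulk RNA, fewer cells of a type and less RNA per cell cannot be told apart. Xist RNA, transcribed from the inactive X chromosome, had 0 to 3 counts in the libraries of male cells and at least 9654 in those of female cells, as labelled. It was most abundant in hormone replicate 1 (685 CPM, against 373 to 392 CPM in the other hormone replicates) and in ConvR female serum replicate 2 (481 CPM, against 311 CPM in replicate 3).

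Per kilobase of exon, which allows genes to be compared with each other, Jak1 was the most abundant of the 10 RNAs with a mean of 32.1 CPM per kb over the 13 libraries. Stat3 followed with 22.3, Ghr with 19.9 and Jak2 with 14.6 CPM per kb. Stat5b stood at 10.4 CPM per kb and its close paralog Stat5a at 2.94. The lowest levels per length were those of Ptpn6 (1.66) and Prlr (1.23 CPM per kb), while Ptpn1 (5.56) and Bcl6 (5.30) lay between. Among 16994 tested genes with a known exon length, Jak1 ranked 2023 and Prlr 11680. The most abundant members varied little: the highest library exceeded the lowest by a factor of 1.13 for Stat3 and 1.21 for Jak1, against 3.88 for Prlr, 2.23 for Bcl6, 1.97 for Ghr and 1.88 for Stat5a.

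**Figure D1:**
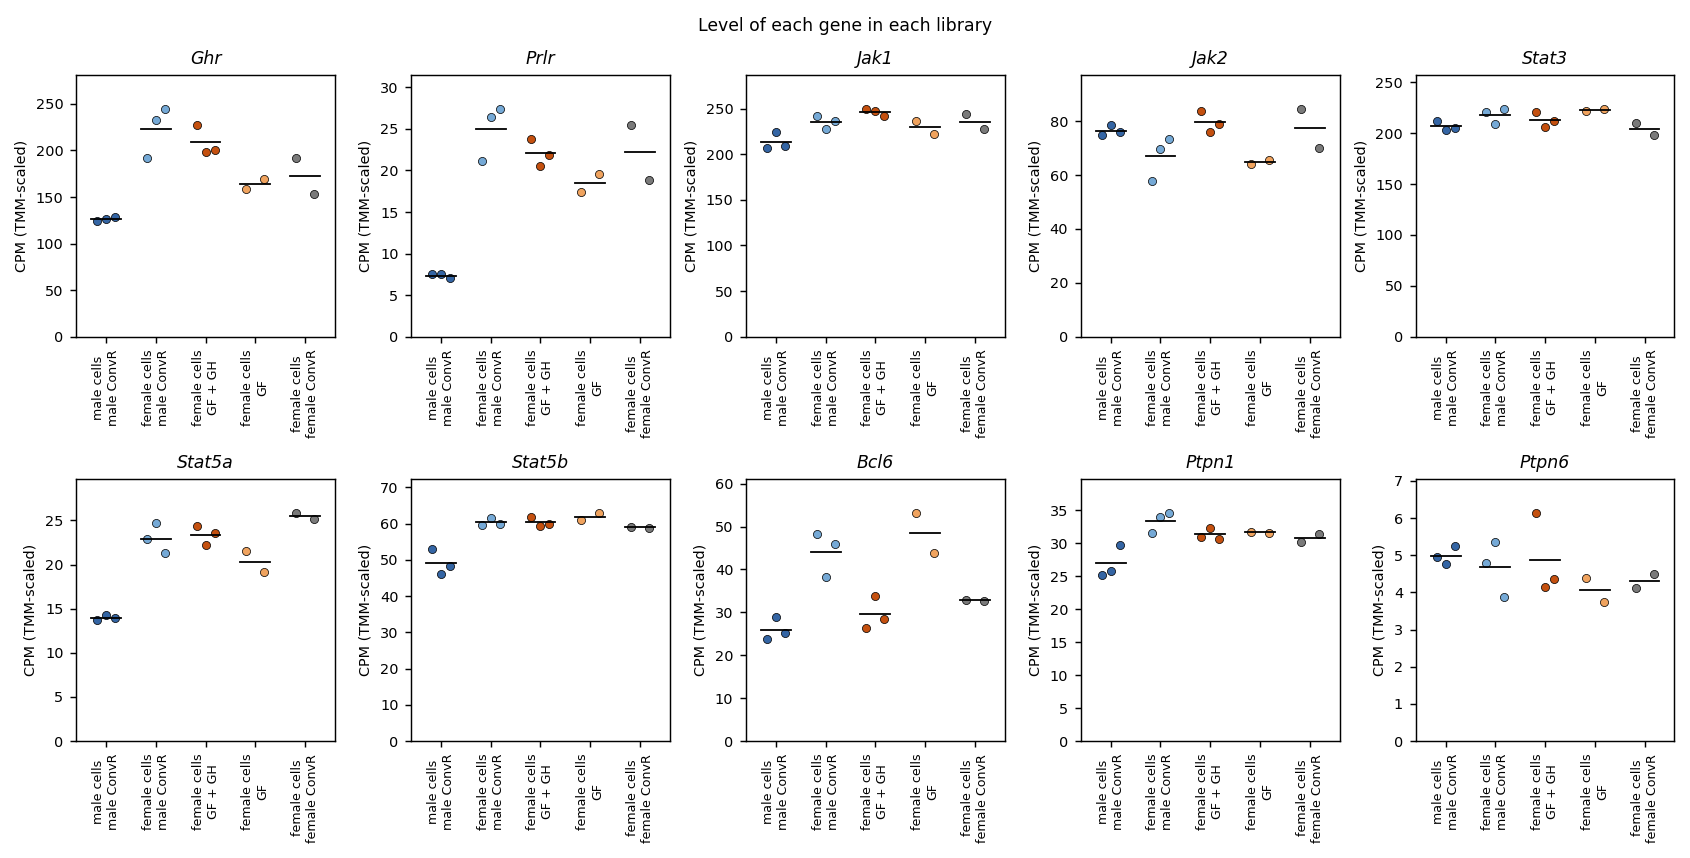
Level of each of the 10 genes in every library, in CPM scaled by TMM on a linear axis from 0; each point is 1 library and each bar the mean of its group, with the 5 groups from left to right as male cells in male ConvR serum, female cells in male ConvR serum, GF serum with growth hormone, GF serum with vehicle and female ConvR serum. For Ghr, Prlr, Stat5a, Stat5b and Ptpn1 every library of male cells lies below all those of female cells. Bcl6 and Jak1 also have their lowest group mean in male cells, with overlap. Bcl6 is high in the female cells in male serum and in GF serum with vehicle.

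Ghr (ENSMUSG00000055737) lies at chr15:3317760-3583492 on the minus strand (mm10) and encodes the growth hormone receptor. Its level was 124, 126 and 128 CPM in the 3 libraries of male cells in male serum, against 192, 232 and 245 CPM in female cells in the same serum. In female cells it was 227, 198 and 201 CPM with growth hormone and 158 and 170 CPM with vehicle in GF serum, and 191 and 154 CPM in ConvR female serum. All male libraries lay below all female ones.

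Between male and female cells in the same serum, Ghr fell by 0.82 ± 0.09 (SE) on the log2 scale, with means of 126 ± 2.05 CPM in male cells and 223 ± 27.9 CPM in female cells (SD, n = 3 each; adjusted p = 4.05e-06). Within female cells it rose with male relative to female ConvR serum by 0.37 ± 0.10 (adjusted p = 0.0361), and the libraries of the groups did not overlap, although 192 CPM in male serum stood next to 191 CPM in female serum. That call was lost without replicate 2 or 3 of male serum (adjusted p = 0.0738 and 0.1) or replicate 3 of female serum, where the log2 change was 0.22 (adjusted p = 0.321). It was also lost in a fit of only these 2 groups (adjusted p = 0.154) and with the replicate number as a block (0.385, adjusted p = 0.0593). With growth hormone the change was 0.35 ± 0.10 (adjusted p = 0.178): all 3 hormone libraries lay above both vehicle libraries, and the difference did not pass the test. In GF relative to ConvR female serum it was -0.07 ± 0.11 (adjusted p = 0.765), and it turned to 0.09 without ConvR replicate 2.

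Prlr (ENSMUSG00000005268, chr15:10177238-10349180, plus strand) encodes the prolactin receptor, which belongs to the same receptor family, also signals through JAK2 and STAT5, and is known as a female-biased gene of mouse liver. It held 7.50, 7.53 and 7.06 CPM in male cells, against 21.2, 26.4 and 27.4 CPM in female cells in the same serum. The hormone group had 23.8, 20.6 and 21.9 CPM, the GF vehicle group 17.4 and 19.6 CPM and the ConvR female serum group 25.5 and 18.8 CPM. The change in male relative to female cells was -1.76 ± 0.12 (adjusted p = 1.6e-08), the largest among the 10 genes in any comparison. In the other comparisons Prlr changed by 0.26 ± 0.13 with growth hormone (adjusted p = 0.414), by -0.27 ± 0.14 in GF relative to ConvR female serum (0.299) and by 0.17 in male relative to female ConvR serum (0.436).

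A predicted gene model on the same strand, RP23-74N15.4, shares 203 exon bases with Prlr in the GENCODE M21 annotation. Its counts came to 95.9% to 96% of those of Prlr in male cells and to 79.7% to 87.2% in the female groups. The deposited counts do not tell which of the genes these reads belong to, and the part of the shared reads in the change of Prlr was not tested.

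Because both receptors were lower in male cells by unequal amounts, their ratio per kb changed: Ghr exceeded Prlr by a factor of 29.1 ± 1.48 in male cells, against 15.1 ± 0.21 in female cells in the same serum (SD, n = 3 each). The other female groups lay nearer to the female cells in male serum, at 16.0 ± 0.44 with hormone (n = 3), 15.1 ± 0.54 in GF serum (n = 2) and 13.3 ± 0.77 in ConvR female serum (n = 2). Within the female groups Ghr, Prlr and Jak2 put the libraries in the same order in 4 of 4 groups, which was not so in the male group. The groups in GF serum and in ConvR female serum held 2 libraries each, where an order can only agree or be reversed. Stat3 and Stat5b had the order of Ghr in 3 of 4 female groups, Stat5a in 2, and Jak1, Bcl6, Ptpn1 and Ptpn6 in 1. The share over all genes was not taken. The ratio of Ghr to Jak2 per kb was 1.85 ± 0.004 in female cells in male serum (SD, n = 3), a coefficient of variation of 0.24%. That of Ghr itself was 12.5%. Jak2 had 2153 to 2904 counts in these libraries, and sampling noise at such counts is larger than 0.24%. The value is therefore no measure of how tightly these genes move together. In the other female groups the ratio varied by 2.29% to 3.68%, and in male cells by 2.5%, where Ghr itself varied by 1.63%. Xist put the libraries in the same order as Ghr in 1 of 4 female groups. In GF serum the order was the opposite, with Ghr at 158 and 170 CPM and Xist at 360 and 289 CPM (replicates 2 and 3). The highest libraries for Ghr, Prlr and Jak2 in ConvR female serum and in the hormone group were, however, the ones richest in Xist. Without both of these, the change with hormone was 0.28 for Ghr, 0.20 for Prlr and 0.25 for Jak2. Each was still short of the threshold (adjusted p = 0.354, 0.721 and 0.44). The rise of Ghr in male relative to female ConvR serum was then 0.53. ConvR replicate 3 was the only female serum library left there, and the lower for Ghr. A larger rise therefore followed from the choice of library.

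Jak2 (ENSMUSG00000024789, chr19:29251828-29313080, plus strand), the kinase of both receptors, passed the test in no comparison. It held 74.9, 78.5 and 76.0 CPM in male cells, against 57.7, 69.7 and 73.5 CPM in female cells in the same serum, a change of 0.19 ± 0.09 (adjusted p = 0.0921) with all male libraries higher. It was called there without replicate 3 of the female cells (adjusted p = 0.0342) and without both Xist-rich libraries (0.0476). With growth hormone it held 83.7, 76.1 and 78.9 CPM, against 64.3 and 65.5 CPM with vehicle. These groups did not overlap, and the change was 0.29 ± 0.10 (adjusted p = 0.219). ConvR female serum gave 84.6 and 70.2 CPM, so that the change was -0.25 ± 0.10 in GF serum (adjusted p = 0.17) and -0.21 ± 0.09 in male serum (0.188), each relative to ConvR female serum.

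Jak1 (ENSMUSG00000028530, chr4:101152367-101265282, minus strand) serves receptors of the interleukin-6 and interferon families. It ranged from 207 to 225 CPM in male cells, against 228 to 242 CPM in female cells in the same serum, with a change of -0.14 ± 0.06 (adjusted p = 0.0619). In the remaining female groups it ranged from 242 to 250 CPM with hormone, from 222 to 237 CPM in GF serum and from 227 to 244 CPM in ConvR female serum. Its changes in the comparisons of sera and hormone lay between -0.04 and 0.10 (log2; adjusted p 0.523 to 0.995).

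The STAT genes sit together on chromosome 11: Stat5b (ENSMUSG00000020919, chr11:100780731-100850724, minus strand) lies 8626 bases from Stat5a (ENSMUSG00000004043, chr11:100859351-100885169, plus strand), and the last 72 exon bases of Stat5a overlap those of Stat3 (ENSMUSG00000004040, chr11:100885098-100939540, minus strand). Reads in stretches that are nearly identical between Stat5a and Stat5b may have been split between them.

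Stat5a held 13.7, 14.3 and 14.0 CPM in male cells, against 22.8, 24.7 and 21.3 CPM in female cells in the same serum, and fell by 0.71 ± 0.08 on the log2 scale (adjusted p = 2.78e-06). All male libraries were lower. In GF serum it had 21.5 and 19.2 CPM, against 25.8 and 25.2 CPM in ConvR female serum, and fell by 0.33 ± 0.09 (adjusted p = 0.0456), close to the threshold. That call was made in 3 of 11 alternative analyses and was lost when any 1 of the 4 libraries was left out (adjusted p 0.0781 to 0.305). With growth hormone Stat5a held 24.3, 22.2 and 23.5 CPM, a change of 0.20 ± 0.08 relative to vehicle (adjusted p = 0.344), again without overlap.

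Stat5b, the main growth hormone mediator of the liver, held 53.0, 46.0 and 48.2 CPM in male cells, against 59.7, 61.6 and 60.0 CPM in female cells in the same serum. It fell by 0.30 ± 0.06 (adjusted p = 0.000875) with no overlap. Between the female groups it ranged from 58.9 to 62.9 CPM and passed no test (adjusted p 0.638 to 0.857). Since Stat5a was lower in male cells by more than Stat5b, the ratio of Stat5b to Stat5a per kb was 4.52 ± 0.41 in male cells and 3.40 ± 0.21 in female cells in the same serum (SD, n = 3 each). It was 3.33 ± 0.10 with hormone (n = 3), 3.94 ± 0.41 in GF serum and 2.98 ± 0.05 in ConvR female serum (n = 2 each).

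Stat3, which carries interleukin-6 signals in the acute phase response, was the steadiest of the 10 genes. Its libraries ranged from 203 to 212 CPM in male cells and from 198 to 224 CPM in all female groups. Its changes were -0.07 in male relative to female cells (adjusted p = 0.303), -0.07 with hormone (0.689), 0.13 in GF serum (0.294) and 0.10 in male serum (0.357).

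**Figure D2:**
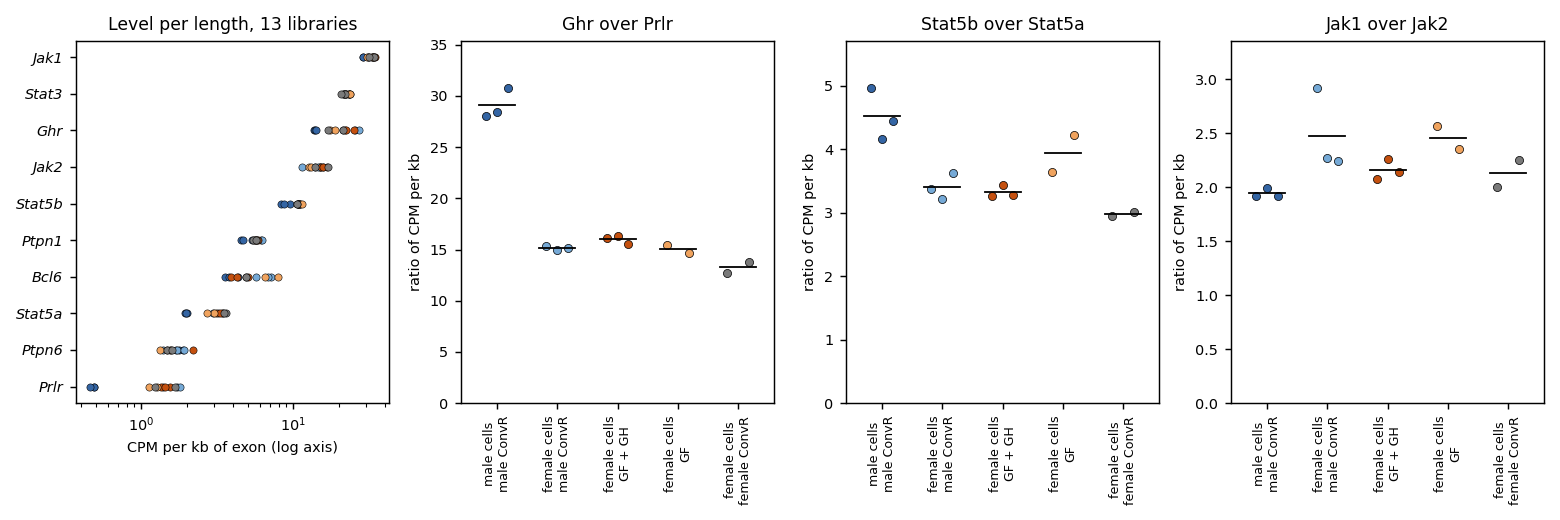
The first panel shows the level per kb of exon of each gene in each of the 13 libraries on a log axis, with the group colours of the other panels; these plot the ratio of CPM per kb for Ghr over Prlr, Stat5b over Stat5a and Jak1 over Jak2 by library on linear axes, with the group mean as a bar. Ghr over Prlr is 28.1 to 30.8 in male cells in male serum and 14.9 to 15.3 in female cells in the same serum.

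Bcl6 (ENSMUSG00000022508, chr16:23965052-23988852, minus strand) encodes the repressor and passed the test with growth hormone. It held 26.2, 33.7 and 28.5 CPM in cells given the hormone for 2 h, against 53.2 and 43.8 CPM in cells given vehicle. All hormone libraries lay below both vehicle libraries. The means were 29.5 ± 3.84 CPM with hormone (SD, n = 3) and 48.5 ± 6.61 CPM with vehicle (n = 2), and Bcl6 fell by 0.72 ± 0.12 on the log2 scale, to 0.608 of the vehicle level (adjusted p = 0.00606). Of all 17405 genes 13 fell in this comparison, and Bcl6 had the smallest adjusted p among them. By the size of the fall it was the seventh, behind genes such as Slc30a3, a zinc transporter (-1.07), and Dusp4, a phosphatase of MAP kinases (-1.01). Without GF vehicle replicate 2, the higher of the vehicle libraries, the change was -0.57 (adjusted p = 0.216) and the call was lost. The hormone group was then set against 1 vehicle library, assumed to vary like the other groups. In the 11 other alternatives the call was made. Ghr (adjusted p = 0.000824) and Jak2 (0.0204) were called with the hormone as well when no filter on low counts was applied, and in no other alternative.

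The sera moved Bcl6 too. In GF serum (53.2 and 43.8 CPM) it was higher than in ConvR female serum (33.0 and 32.7 CPM), and rose by 0.56 ± 0.13 (adjusted p = 0.0173). In female cells in male serum it held 48.2, 38.2 and 45.9 CPM and rose by 0.43 ± 0.12 relative to ConvR female serum (adjusted p = 0.0374). Neither pair of groups overlapped. The call in GF serum was lost without ConvR replicate 2 (adjusted p = 0.113) or 3 (0.0539) and without GF replicate 2 (0.18). The call in male serum was lost without replicate 1 or 3 of male serum (0.124 and 0.0813) and without replicate 2 or 3 of female serum (0.153 and 0.142). The call in GF serum was not made without both Xist-rich libraries either (0.0844), nor that in male serum (0.126) or in a fit of only those groups (0.0717). Over all alternatives of both comparisons Bcl6 was higher than in ConvR female serum by 0.36 to 0.69 on the log2 scale.

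In male cells Bcl6 held 23.8, 29.0 and 25.2 CPM, against 48.2, 38.2 and 45.9 CPM in female cells in the same serum. It fell by 0.76 ± 0.11 (adjusted p = 4.48e-05), with no overlap, and kept the call in 13 of 13 alternatives. Bcl6 is known as a male-biased gene of mouse liver in vivo, so the direction in these cultures was the opposite one. Across the 5 groups its means ordered as 48.5 CPM (GF serum), 44.1 (female cells in male serum), 32.8 (ConvR female serum), 29.5 (GF serum with hormone) and 26.0 CPM (male cells). The first and second overlapped, as did the last 3 in sequence, and a gap lay between the second and the third.

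Growth hormone makes STAT5 bind a short palindrome, and the promoters were searched for the form TTCNNNGAA, which reads the same on both strands. The windows were the 250 bases before each RefSeq transcript start in build GRCm38.p6, the same assembly as mm10. All 10 members had at least 1 window, 16 in all, and 3 windows of 2 members held the motif. Of 32851 windows of this length over all genes, 7.02% held it at least once and 0.027% (9 windows) held it 3 times or more. Bcl6 had it in both of its windows, once before the outer start (chr16:23988853-23989102, minus strand) and 3 times before the inner start (chr16:23981284-23981533, minus strand), which lies within the annotated gene. Prlr had it once before its second start (chr15:10223656-10223905, plus strand). These windows are shown because Bcl6 fell with the hormone and Prlr is the other member with a match; the capitals mark the motif.
Bcl6, outer start: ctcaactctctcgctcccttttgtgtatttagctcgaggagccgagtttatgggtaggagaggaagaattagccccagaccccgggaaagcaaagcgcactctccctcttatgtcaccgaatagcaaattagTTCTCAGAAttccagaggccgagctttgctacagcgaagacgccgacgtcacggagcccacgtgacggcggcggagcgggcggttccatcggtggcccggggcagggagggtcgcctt
Bcl6, inner start: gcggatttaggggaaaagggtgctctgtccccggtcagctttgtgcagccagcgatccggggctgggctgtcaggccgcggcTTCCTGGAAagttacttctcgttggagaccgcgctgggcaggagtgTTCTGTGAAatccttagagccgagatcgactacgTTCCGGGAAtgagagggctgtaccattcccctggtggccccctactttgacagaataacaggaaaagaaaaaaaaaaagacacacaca
Prlr, second start: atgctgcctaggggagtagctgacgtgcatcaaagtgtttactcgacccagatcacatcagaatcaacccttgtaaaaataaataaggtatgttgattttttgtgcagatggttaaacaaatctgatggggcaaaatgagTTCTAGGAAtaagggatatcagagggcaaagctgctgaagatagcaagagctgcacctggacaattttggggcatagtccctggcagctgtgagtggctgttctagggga
The matches in Bcl6 began 118 bases before the outer start, and 168, 122 and 88 bases before the inner one. That in Prlr began 110 bases before the start. A match is a run of letters and not a measured binding site, and neither is a lack of matches in the windows of the other 8 genes evidence about STAT5.

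Among the phosphatases, Ptpn1 (ENSMUSG00000027540, chr2:167932057-167979385, plus strand), whose product PTP1B removes phosphate from JAK2, held 25.2, 25.9 and 29.8 CPM in male cells, against 31.5, 34.0 and 34.6 CPM in female cells in the same serum. It fell by 0.31 ± 0.07 (adjusted p = 0.00277) without overlap. In the other female groups it ranged from 30.2 to 32.4 CPM and passed no test. Ptpn6 (ENSMUSG00000004266, chr6:124720707-124738714, minus strand), best known from blood cells, was low: 4.95, 4.75 and 5.25 CPM in male cells, against 4.79, 5.37 and 3.87 CPM in female cells in the same serum. It passed no test (adjusted p 0.582 to 0.871). The highest value, 6.14 CPM, was in hormone replicate 1. The summed markers of blood leukocytes other than Kupffer cells were 2.01 to 3.14 CPM in the hormone group and 1.63 to 1.81 CPM in its vehicle group, and their part in the level of Ptpn6 was not tested. An antisense model, Gm20531, overlaps 195 exon bases of Ptpn6, and held at most 9 counts in any library.

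Counted together, 1 of the 10 genes rose (Bcl6) and 1 fell (Stat5a) in GF relative to ConvR female serum, where 2.86% of all tested genes rose and 3.54% fell. With growth hormone 1 member fell and 0 rose, where 0.0747% of all genes fell and 0.511% rose. In male relative to female ConvR serum 2 members rose (Ghr and Bcl6) and 0 fell, where 3.95% of all genes rose and 4.85% fell. In male relative to female cells 6 of 10 fell and 0 rose, where 19% of all genes fell and 17.6% rose. With library totals in place of TMM scaling, 2349 genes rose and 4643 fell in that comparison, in place of 3065 and 3314, and Jak1 (-0.23, adjusted p = 0.00449) and Stat3 (-0.16, 0.0217) joined the falls. In these comparisons, in the same order, the libraries of the groups did not overlap for 6, 7, 5 and 8 members. Over all tested genes the libraries did not overlap for 49.9% with GF serum, 32% with hormone, 34.9% with male serum and 47.6% in male cells. The median change of the 10 genes was -0.06, 0.15, 0.10 and -0.30, and that of all tested genes lay between -0.0212 and 0.0015.

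**Figure D3:**
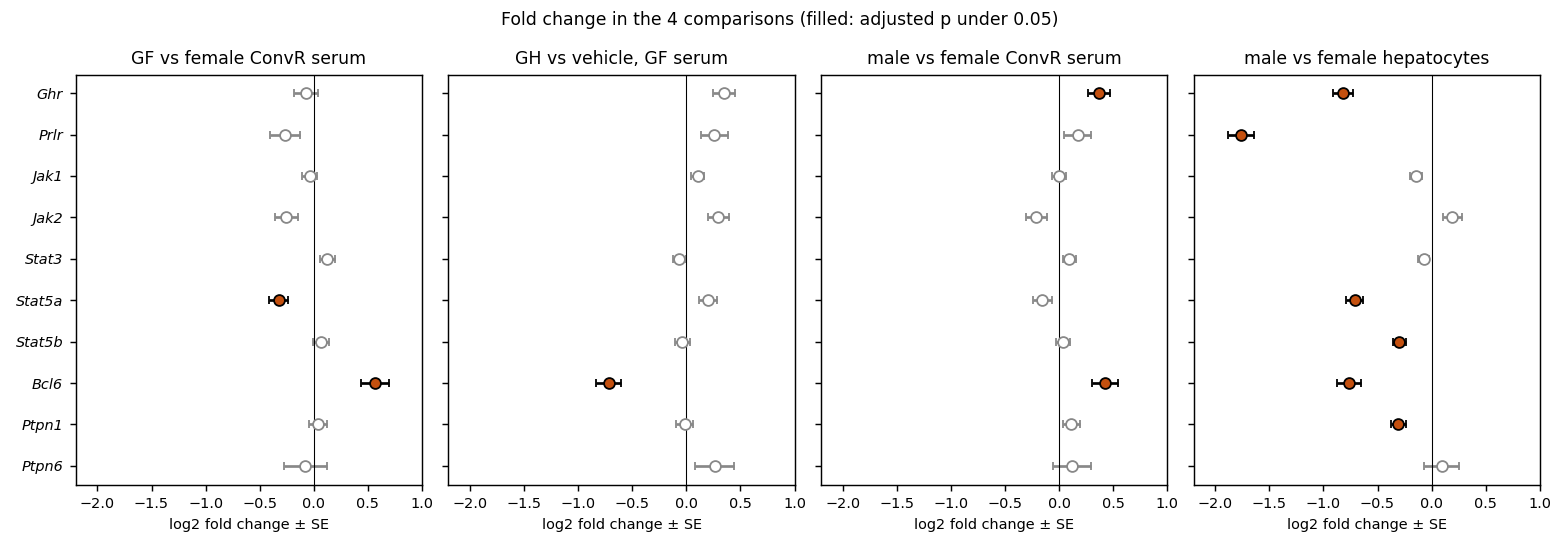
Log2 fold change with its standard error (bars) of each gene in the 4 comparisons, the group named first in a panel title over the group named second; filled points passed an adjusted p of 0.05. Bcl6 is filled in all 4 panels, and 6 genes are filled left of 0 in male against female hepatocytes.

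Markers of other cells differed between the groups as well. The 7 markers of sinusoidal endothelial cells summed to 49.0 to 52.1 CPM in male cells, against 15.2 to 17.4 CPM in female cells in the same serum. All but Lyve1 rose, 6 of 7. The 7 stellate cell markers summed to 29.5 to 33.6 CPM, against 15.3 to 21.5 CPM; Reln, Pdgfrb and Dcn rose and Col1a1 fell. The 8 Kupffer cell markers in the table summed to 149 to 168 CPM in male cells, against 78.6 to 97.9 CPM in female cells. That sum was carried by Cd68, a gene of macrophage lysosomes, which rose by 0.96 (adjusted p = 1.14e-06) to 154 CPM in male cells, against 79.0 CPM in female cells. The other 4 tested Kupffer markers passed no test there, at -0.82 for Vsig4 (adjusted p = 0.0536), -0.27 for Csf1r, -0.06 for Lyz2 and -0.04 for Clec4f. Of the 5 cholangiocyte markers Epcam rose and Sox9 fell in male cells, and of the 3 tested leukocyte markers 0 were called. Among the Kupffer markers Marco, Timd4 and Cd5l were at 0 in some libraries, and so were Cd3g, Nkg7, Cd79b and S100a9 among the leukocyte markers.

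Marker levels also differed between sera. The Kupffer sum was 78.6 to 97.9 CPM in female cells in male serum, against 104 to 113 CPM in ConvR female serum, without overlap, and Cd68 fell there (-0.38, adjusted p = 0.0366). The hepatocyte markers Cps1 (-0.54, adjusted p = 0.00157) and Asgr1 (-0.48, 0.00909) fell in that comparison. Of the cholangiocyte markers Sox9 rose by 0.79 (adjusted p = 0.0242) and Spp1 fell by 0.70 (0.0208). In GF serum 4 of the 8 hepatocyte markers fell relative to ConvR female serum, namely Apoa1 (-0.97), Asgr1 (-0.61), Cps1 (-0.58) and Hnf4a (-0.43). The Kupffer sum was 125 to 134 CPM in GF serum, against 104 to 113 CPM, and the stellate sum 29.7 to 32.1 CPM, against 20.1 to 27.6 CPM, with 0 markers of either list called. With hormone the Kupffer sum was 88.1 to 106 CPM, against 125 to 134 CPM with vehicle in GF serum. The stellate sum was 17.5 to 24.3 CPM with hormone, against 29.7 to 32.1 CPM with vehicle, and 0 markers of any list were called. The part of these cells in the changes of the 10 genes was not tested.

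The rest of the pathway was taken as 62 genes in 8 lists, of which 59 could be tested. With growth hormone 3 rose and 0 fell, where 0.511% of all tested genes rose and 0.0747% fell. Socs2, a feedback inhibitor and a classic STAT5 target, held 31.3, 26.9 and 27.2 CPM with hormone, against 15.5 and 14.6 CPM with vehicle, and rose by 0.92 ± 0.12 (adjusted p = 0.000494). It was the only one of the 3 called in all 12 alternatives. Socs3, an inhibitor induced through STAT3, rose by 0.69 ± 0.11 (adjusted p = 0.00483), and Osmr, the oncostatin M receptor, by 0.52 ± 0.09 (0.00687). Without GF vehicle replicate 2 neither was called (adjusted p = 0.168 for Socs3 and 0.0752 for Osmr), and Osmr was not called without GF vehicle replicate 3 either (0.213). Cish, which encodes the inhibitor CIS, held 57.2, 54.7 and 54.3 CPM with hormone, against 43.3 and 39.4 CPM with vehicle. It did not overlap and did not pass (0.42 ± 0.14, adjusted p = 0.235). Without the low-count filter (adjusted p = 0.000302) and in a fit of only these groups (0.0178) Cish was called. Igf1, the hormone's main endocrine product, changed by 0.22 ± 0.08 (adjusted p = 0.283). No promoter window was available for Socs2. That of Socs3 held TTCNNNGAA once and those of Cish, Osmr and Igf1 did not hold it. Over all genes 7.02% of such windows held it at least once. Here too a match is not a measured binding site, and a lack of matches is no evidence about STAT5.

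In female cells, the order of the 4 group means of Bcl6 was the reverse of that of Socs2. Socs2 averaged 28.5 ± 2.47 CPM with hormone (n = 3), 15.0 ± 0.62 CPM in GF serum (n = 2), 16.2 ± 0.34 CPM in male serum (n = 3) and 21.2 ± 4.69 CPM in ConvR female serum (SD, n = 2). For Bcl6 the libraries in GF serum and in male serum overlapped, and so did those in ConvR female serum and with hormone. The likeness of the orders was not tested, nor was it counted over other genes. Male cells had the lowest group mean of both genes, with Socs2 at 11.6 ± 0.83 CPM (n = 3). Cish did not follow either order: it averaged 55.4 CPM with hormone, 41.4 CPM in GF serum, 44.5 CPM in male serum and 27.0 CPM in ConvR female serum.

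In GF relative to ConvR female serum 4 of the 59 genes rose and 4 fell, where 2.86% of all tested genes rose and 3.54% fell. The falls included 3 cytokine receptor genes of the interleukin-6 family, Il6ra (-0.73 ± 0.17), the shared subunit Il6st (-0.39 ± 0.10) and Osmr (-0.42 ± 0.09), and Socs2 (-0.50 ± 0.13). Pim1, a kinase gene induced by STATs, rose by 1.12 ± 0.20, to 132 ± 0.27 CPM in GF serum, against 61.1 ± 9.30 CPM in ConvR female serum (SD, n = 2 each; adjusted p = 0.00455). Cish rose by 0.61 ± 0.16, the ubiquitin ligase gene Cbl by 0.42 ± 0.12 and the kinase gene Src by 0.33 ± 0.07. None of these 8 calls was made in all 11 alternatives; Pim1 lost its call without ConvR replicate 2 (adjusted p = 0.0666), as did the 7 others. Without either GF replicate those 7 lost their calls too, and without ConvR replicate 3 Cbl and Cish did. In a fit of only these groups Il6st, Osmr, Cbl, Socs2 and Src were not called.

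In male relative to female ConvR serum 5 rose and 5 fell, where 3.95% of all tested genes rose and 4.85% fell. The rises included Pim1 (0.98 ± 0.19), Cish (0.72 ± 0.14), Myc (0.45 ± 0.13) and Src (0.30 ± 0.07). Ifngr1, a receptor subunit for interferon gamma, fell to 71.6 ± 6.83 CPM in male serum (n = 3), against 98.6 ± 4.09 CPM in female serum (SD, n = 2; -0.46 ± 0.08, adjusted p = 0.00212), and was the only one of these calls made in all 12 alternatives. Socs2 (-0.39), Osmr (-0.32) and Hdac3 (-0.24), whose product is a histone deacetylase, also fell. Without replicate 2 of ConvR female serum, Pim1, Src, Myc, Socs2 and Osmr lost their calls, and without replicate 3 Cish, Hdac3 and Myc did. Without replicate 1 of male serum Myc, Hdac3, Osmr and Socs2 lost theirs, without replicate 2 Socs2, and without replicate 3 Hdac3 and Socs2. In a fit of only these groups Cish, Src, Myc, Socs2, Osmr and Hdac3 were not called, and with the replicate block Socs2 and Myc were not.

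Of the 59 genes, 7 rose and 20 fell in male relative to female cells, where 17.6% of all tested genes rose and 19% fell. The Bcl6 corepressor genes Bcor (-0.97 ± 0.11) and Ncor1 (-0.35 ± 0.09) fell along with Bcl6, and Mta3 rose by 0.22 ± 0.07. The STAT genes Stat6 (-0.31 ± 0.06) and Stat2 (-0.25 ± 0.08) fell. Socs2 (-0.48 ± 0.11) and Cish (-0.54 ± 0.13) fell, whereas Socs3 rose by 0.89 ± 0.10, with 12.2 ± 0.12 CPM in male cells and 6.58 ± 0.60 CPM in female cells (SD, n = 3 each; adjusted p = 4e-06). Ccnd1, the cyclin D1 gene, changed most, to 5.10 ± 0.40 CPM in male cells, against 21.9 ± 5.11 CPM in female cells (-2.10 ± 0.16, adjusted p = 3.03e-08). Igf1 held 499 ± 20.9 CPM in male cells and 470.2 ± 21.9 CPM in female cells (SD, n = 3 each) and did not pass (0.08 ± 0.07, adjusted p = 0.385), beside a lower Ghr. The receptor protease gene Adam17 (0.21 ± 0.06) and the ubiquitin ligase gene Stub1 (0.29 ± 0.05) rose. Of the 22 genes called and taken by rule here, 16 were called in all 13 alternatives. Stat2 lost its call without female replicate 1 or male replicate 1 or 2 and Mta3 without male replicate 3. Mta3 was also lost with library totals (0.13, adjusted p = 0.113) and without the low-count filter (0.0536), and Adam17 with library totals (0.12, adjusted p = 0.127).

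**Figure D4:**
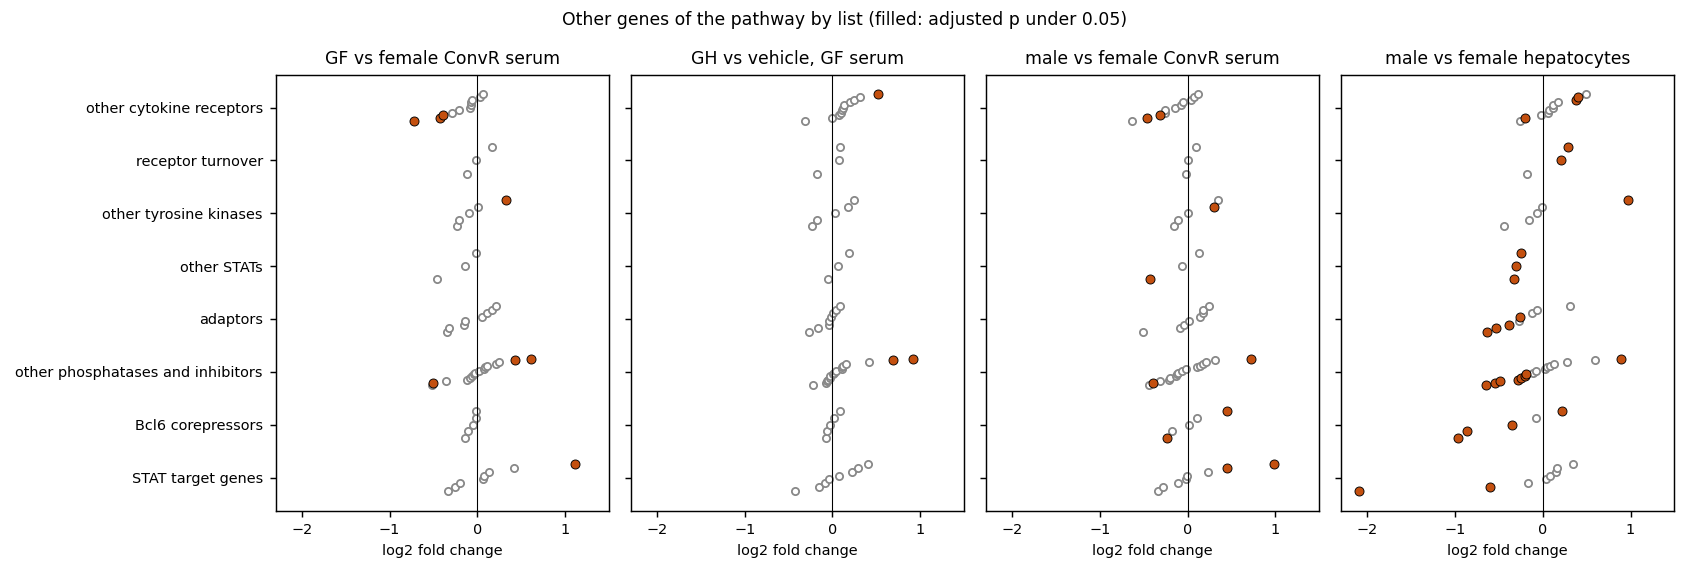
Log2 fold change of the other pathway genes in the 4 comparisons, 1 row per list and 1 point per gene, the group named first in a panel title over the group named second; filled points passed an adjusted p of 0.05. With growth hormone 3 points are filled, all right of 0, and in male against female hepatocytes 20 are filled left of 0 and 7 right of 0.

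Likeness to other genes was taken as the root mean square difference between log2 CPM profiles over the 13 libraries, each centred on its own mean, among genes with a mean of at least 5 CPM. The nearest profiles to Ghr were those of Lpin3, a phosphatidate phosphatase gene (0.096), Bmp8b, a growth factor gene (0.109), and Rasl12 (0.122), where Ghr itself spread by 0.325. Those nearest to Stat5a were Pdxk, which encodes pyridoxal kinase (0.072), Polr3g (0.080) and Entpd6 (0.082), with a spread of 0.320. Bcl6 had no neighbour as near: Dvl3, a Wnt pathway gene (0.150), Spsb1 (0.155) and Rfx1 (0.159) came first, with a spread of 0.364. Over the 10 libraries of female cells alone, Rasl12 was again among the 3 nearest to Ghr and Dvl3 among those nearest to Bcl6, and all 3 genes nearest to Stat5a were others (Eogt, Acad8 and Ttc8).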

How the data were processed

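RNA was measured by stranded total RNA sequencing after depletion of ribosomal RNA. The deposited table holds unscaled exon counts for each gene, which the authors made from reads aligned with STAR 2.4.0i to mm10, per the submitters' processing notes. Which program did the counting, with which annotation and strand setting, is not given in the sources used here. Of 15 samples, 13 libraries were used. The 2 columns that share a header name could not be assigned and were left out, so replicate 1 of ConvR female serum and of GF serum is not analysed here. Of 38087 gene rows, 36308 matched GENCODE M21, which gave coordinates and exon lengths.

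Counts were filtered with filterByExpr (minimum count 10) and scaled by TMM. One model of the 5 groups without covariates (8 residual degrees of freedom, biological coefficient of variation 9%) was fitted in edgeR 4.0.16 (R 4.3.3). The 4 comparisons were tested with its quasi-likelihood F test, two-sided, with Benjamini-Hochberg adjustment over 17405 genes and a threshold of 0.05. The standard error is the log2 change divided by the square root of F, and CPM use library sizes scaled by TMM. The procedure was also run on simulated counts with known changes, a check of the code and not of the calls made in these data. Alternatives were library totals, DESeq2 size factors, the Wald test of DESeq2 1.42.0, no low-count filter, a replicate block, a fit of only the 2 groups compared, each library left out, and both libraries rich in Xist left out.

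The 10 genes, the pathway and marker lists and the alternatives were chosen with earlier results of these data known. Named were the 10 genes, Socs2, Cish and Igf1 in every comparison, and up to 3 called genes per list and direction; Slc30a3 and Dusp4 were named after their values were seen. Some genes that the rule names are not reported here. The 3 nearest profiles of Ghr, Stat5a and Bcl6 were named by rule. Replicates of a group differed by more than sampling noise (chi-square per degree of freedom 5.46 to 53.36), and unevenly. In male cells the pairs gave 5.46 to 8.74. With hormone, replicate 1 gave 36.98 and 40.98 against the others, which gave 9.26 between them. For female cells in male serum, replicate 1 gave 44.97 and 53.36, and the others 21.47. The pair in ConvR female serum gave 34.17 and that in GF serum 14.21. The model assumed the same spread in all groups. Promoter windows came from RefSeq.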

Additional observations from a re-analysis of the deposited data

How the results depend on the processing

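Between male and female cells the members' calls stood in every alternative run: all 6 were made in 13 of 13, with 6 to 8 members called in all. The count of members called in GF relative to ConvR female serum, 2, became 1 without the low-count filter, 1 with the replicate block, where Stat5a lost its call (adjusted p = 0.0581), 1 where only these groups were fitted, and 0 when the pair of libraries rich in Xist was dropped; it ran from 0 to 1 when 1 library was left out. With growth hormone the count, 1, became 3 without the low-count filter, where Ghr (adjusted p = 0.000824) and Jak2 (0.0204) were called, and ran from 0 to 1 when 1 library was left out. In male relative to female ConvR serum the count, 2, became 1 with the replicate block, where Ghr lost its call (adjusted p = 0.0593), 0 where only these groups were fitted and 1 when the pair of libraries rich in Xist was dropped, and ran from 0 to 1 when 1 library was left out. The cause of these moves was not tested. By construction fewer libraries entered when some were left out or only 2 groups were fitted. Without the low-count filter more genes were tested (35445, against 17405). The replicate block kept the libraries and genes but left 6 residual degrees of freedom in place of 8. Whether replicate numbers paired samples cannot be told from these data. Correlations of deviations with the same number ran from -0.016 to 0.126. Male replicates 2 and 3, but not 1, correlated best with their own number in female cells. In a group of 2 libraries the deviations from the group mean mirror each other, so this check could hardly show pairing there. With the replicate block, the genes called over all became 981, 62, 1189 and 6266, in place of 1115 (GF serum), 102 (hormone), 1532 (male serum) and 6379 (male cells). Over all alternatives they ran from 274 to 1731, from 33 to 796, from 468 to 2064 and from 5248 to 6992.

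Sign changes were small. In male relative to female ConvR serum Jak1 turned to 0.003 with DESeq2 size factors, 0.006 where only these groups were fitted, 0.003 with the DESeq2 test, 0.046 without the Xist-rich pair, and ran from -0.053 to 0.047 with 1 library left out; Prlr then ran from -0.03 to 0.404. In GF relative to ConvR female serum Ghr turned to 0.092 and Jak1 to 0.012 without the Xist-rich pair. With 1 library left out Ghr ran from -0.225 to 0.089, Jak1 from -0.091 to 0.009 and Ptpn6 from -0.205 to 0.031. Ptpn1 turned to 0.015 with hormone under the replicate block, and Igf1 to -0.003 in male cells with library totals. Ptpn6 ran from -0.028 to 0.203 in male cells with 1 library left out. None of these values passed the test. Of the members' values under alternatives, 435 kept direction and side of the threshold, 24 lost a call and 6 gained one. Groups of 2 libraries limit the comparisons of sera and hormone: leaving 1 out leaves a lone library that is assumed to vary like the other groups. Overlapping gene models and the Stat5 paralogs limit the counts of Prlr, Stat5a and Stat5b.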
